A study of Mus musculus with 20 samples.

Results

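The brains of 18-month-old mice homozygous for human APOE4 were compared with those of mice of the same age homozygous for human APOE3, gene by gene, from the raw counts of 10 of the 20 libraries at this age. The 10 were chosen by genotype label alone, with 5 APOE4 libraries (mice F95K, F78N, F58M, FH78 and FH66) and 5 APOE3 libraries (mice F61N, F37N, F39N, F10N and F64M). All were labelled female. They were targeted replacement mice of the C57bl/6 strain, in which the human gene stands in place of mouse Apoe under the mouse promoter. Neither group therefore carries an intact mouse Apoe coding gene. RNA came from the frozen left hemi-brain, and each library is 1 mouse. The other 10 libraries are 5 APOE2 mice and 5 mice labelled APOE4D with the genotype APOE4. The APOE2 mice entered the fit to help estimate the spread between mice. APOE4D values are given beside the others for only some of the genes and lists described. The labels do not say what the D stands for.

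Apolipoprotein E carries cholesterol and other lipids between cells, and in the brain it is made chiefly by astrocytes. Neurons and oligodendrocytes take up its particles through receptors of the LDL receptor family. In people, the APOE4 allele raises the risk of late-onset Alzheimer's disease relative to APOE3, and these mice allow the alleles to be compared without amyloid or tau deposits.

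The libraries held 33032138 to 46887242 counted reads in APOE4 and 43051666 to 51960932 in APOE3, with mitochondrially encoded mRNA at 6.25% to 7.22% and 5.9% to 7.4% of reads. Reads that still mapped to mouse Apoe gave 33.9, 38.6, 37.5, 36.6 and 41.3 CPM (read counts scaled to a common library size with TMM factors) in APOE4 and 40, 42.6, 45.4, 47.1 and 42.2 CPM in APOE3. The APOE4 mean was 37.6 ± 2.74 CPM, against 43.5 ± 2.79 CPM for APOE3 (SD, n = 5 each), with overlapping groups, and an exact two-sided permutation test gave p = 0.0159, where 0.00794 is the smallest p it allows. In edgeR's quasi-likelihood test, described below, the log2 fold change of Apoe was -0.21 (adjusted p = 0.00933). It was -0.061 (adjusted p = 0.479) once trends over transcript length and GC content were removed. Apoe also did not pass with 1 surrogate variable (adjusted p = 0.259), and passed without mice with an FH ID (adjusted p = 0.0332). These reads do not show which human allele a mouse carries. Xist is the noncoding RNA of the silenced X chromosome in females. It had 48 reads in the APOE3 library F61N and at least 14653 reads in each of the other 9. F61N thus does not behave like the other libraries labelled female for this gene. Of the 5 sex chromosome genes listed as a label check, Xist alone passed the expression filter, and the sex of F61N was not tested further. F61N was kept, and results that move without it are marked. The tissue label was checked against brain cell markers, and all 18 neuron, 22 astrocyte, 24 oligodendrocyte and 28 microglia markers passed the expression filter. In bulk tissue, fewer cells of a type and less RNA per cell cannot be told apart.

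Of 21022 genes tested, 4422 (21.0%) passed edgeR's quasi-likelihood test at an adjusted p under 0.05, with 2273 higher in APOE4 (10.8%) and 2149 lower (10.2%). Most differences were small. A fold of at least 1.5 was reached by 428 genes (2.04%), with 233 higher (1.11%) and 195 lower (0.928%). Groups whose CPM did not overlap were found for 2432 genes (11.6%), with APOE4 above in 5.46% and below in 6.11% of all genes tested. The count depended on how the libraries were modelled. It was 836 genes with 1 surrogate variable in the fit (41.9% of them higher, against 51.4% in the first fit), 1403 when mice with an FH ID were left out (44.4% higher), 2 of which are in APOE4 and 0 in APOE3, and 5739 without F61N. The surrogate variable ran from -0.371 to -0.037 in APOE4. In APOE3 it was -0.279 in F61N and 0.186 to 0.634 in the other libraries, so it is partly confounded with genotype. A core of 439 genes passed in the same direction in all 23 alternative fits, 184 higher and 255 lower, and 75 of these had a fold of at least 1.5.

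The leading genes described first were picked among called genes by size of the difference, with a mean log2 CPM of 1 or more and groups that do not overlap, so the lack of overlap is part of the choice. Serpina3n, which encodes a secreted serine protease inhibitor known as a marker of reactive astrocytes, was at 133, 134, 129, 131 and 123 CPM in APOE4, against 21.1, 33.5, 22.7, 26.6 and 29.8 CPM in APOE3. The groups were far apart and the APOE4 libraries nearly alike (log2 fold change 2.28, SE 0.35, adjusted p = 0.00081). Among 17 tested reactive astrocyte markers it was the only one to pass the test, and the median of that list was -0.18.

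Wdfy1, an adaptor in Toll-like receptor signalling, was at 23, 21.1, 22.6, 22.8 and 23.1 CPM in APOE4, against 59.4, 53.9, 49.4, 52.9 and 47.3 CPM in APOE3 (log2 fold change -1.22, SE 0.05, adjusted p = 4.47e-14). Rdh13, a mitochondrial retinol dehydrogenase, was at 27.8, 30.1, 29.3, 29.7 and 29.4 CPM in APOE4, against 59.6, 61.7, 64.7, 56.4 and 64.3 CPM in APOE3 (log2 fold change -1.07, SE 0.07, adjusted p = 1.41e-08). Thnsl1, a threonine synthase-like gene, was at 19.5, 18.3, 20.9, 20 and 18.5 CPM in APOE4, against 13.2, 11.8, 11.7, 10.6 and 12.2 CPM in APOE3 (log2 fold change 0.71, SE 0.06, adjusted p = 1.67e-08). For each of these 3 genes the lowest library of one genotype lay above the highest of the other. The APOE4D libraries lay with APOE4, at 20.6 to 22.6 CPM for Wdfy1, 28.9 to 33.1 CPM for Rdh13 and 17.8 to 20 CPM for Thnsl1.

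Several genes were near absent in one genotype. Oscar, an immunoglobulin-like receptor of osteoclasts and myeloid cells, was at 3.03, 3.87, 3.26, 2.91 and 3.49 CPM in APOE4, against 0.141, 0.0904, 0.21, 0.126 and 0.433 CPM in APOE3 (log2 fold change 4.01, SE 0.24, adjusted p = 3.06e-11). Ighg2c, the constant region of an immunoglobulin heavy chain, was at 0.112, 0.0872, 0, 0.174 and 0.0426 CPM in APOE4, against 3.9, 4.86, 4.78, 5.12 and 5.56 CPM in APOE3 (log2 fold change -5.80, SE 0.42, adjusted p = 5.48e-07). Neither pair of groups overlapped, and the APOE4D libraries were again with APOE4, at 3.04 to 4.54 CPM for Oscar and 0 to 0.156 CPM for Ighg2c.

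The other heavy chain genes tested differed less than Ighg2c. Ighm, the IgM chain, was at 17.6 to 22.7 CPM in APOE4 (median 22.1), against 31.6 to 67.8 CPM in APOE3 (median 35.9), with a log2 fold change of -0.97 (adjusted p = 0.00631). Igha, the IgA chain, was at 0.149 to 0.32 CPM in APOE4, against 0.475 to 0.86 CPM in APOE3 (log2 fold change -1.58, adjusted p = 0.000306). Ighd, Ighg2b and Ighg3 did not pass the test, and neither did the light chain Igkc, which was at 20 CPM in the APOE3 library F10N and between 0.532 and 2.28 CPM in the other 9. These immunoglobulin genes other than Ighg2c were picked after their values were seen.

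Further large rises were seen in Dnah6, a motile cilium dynein, at 8.93, 5.5, 9.79, 5.99 and 7.43 CPM in APOE4 and 2.21, 2.71, 2.71, 2.33 and 3.75 CPM in APOE3 (log2 fold change 1.45, adjusted p = 2.51e-05). Of 32 tested genes of ependymal and motile cilia 3 were higher (9.38%, against 10.8% of all genes) and none lower. Kcna1, a voltage-gated potassium channel, was at 24.4, 30.7, 29.6, 34.8 and 30.4 CPM in APOE4 and 18.5, 18.3, 14.5, 16.3 and 18.2 CPM in APOE3 (log2 fold change 0.81, adjusted p = 0.000376), and the APOE4D libraries reached from 18.7 to 26.4 CPM. Anxa4, a calcium-dependent membrane-binding protein, had a log2 fold change of 0.82 (11.9 to 14.6 CPM in APOE4, 6.09 to 8.64 CPM in APOE3), and Aim2, a sensor of cytosolic DNA, one of 0.84 (4.54 to 5.7 CPM in APOE4, 2.55 to 3.46 CPM in APOE3). Tmem72, a choroid plexus transcript, was at 8.14 to 12.1 CPM in APOE4 and 4.01 to 5.5 CPM in APOE3 (log2 fold change 0.93). Of the 22 choroid plexus markers tested 2 were higher and 2 lower (9.09% each, against 10.8% and 10.2% of all genes).

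Among the large falls, Ninj2, a cell adhesion protein of the ninjurin family, was at 1.4, 1.11, 1.13, 1.14 and 0.979 CPM in APOE4 and 2.75, 2.92, 3.25, 3 and 2.88 CPM in APOE3 (log2 fold change -1.37, adjusted p = 8.17e-06). Asprv1, a retroviral-like aspartic protease, was at 0.562 to 1.13 CPM in APOE4 and 2.08 to 2.74 CPM in APOE3 (log2 fold change -1.36, adjusted p = 3.72e-06). Neither gene overlapped between the groups. The erythroid heme enzyme Alas2 (log2 fold change -1.49) and the globins Hba-a1 (-1.39), Hba-a2 (-1.34) and Hbb-bs (-1.38) fell together. Hbb-bs was at 66.1, 60.1, 76.8, 78.7 and 48.9 CPM in APOE4, against 273, 254, 118, 115 and 102 CPM in APOE3, with F61N and F37N the highest. Without the FH mice the log2 fold changes of Alas2, Hba-a1, Hba-a2 and Hbb-bs were -1.65, -1.32, -1.26 and -1.35, and none passed (adjusted p of 0.105, 0.101, 0.0714 and 0.0987). The part of residual blood in the tissue was not tested.

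The same choice, or for Gm13601 and Gm12758 the smallest p, took in predicted genes and a pseudogene. Gpi-ps, a processed copy of the glycolytic enzyme gene Gpi, was at 5.22 to 8.35 CPM in APOE4 and 0.964 to 1.76 CPM in APOE3 (log2 fold change 2.40). Gm44090 was at 0.0249 to 0.0852 CPM in APOE4 and 2.45 to 4.45 CPM in APOE3 (log2 fold change -5.85), and Gm13601 at 0.256 to 0.337 CPM in APOE4 and 1.89 to 2.55 CPM in APOE3 (log2 fold change -2.91). Gm12758 had no read in 4 of 5 APOE4 libraries and 0.783 to 1.38 CPM in APOE3. Gm47283 (log2 fold change 2.79), Gm38020 (0.89) and Gm13306 (-1.08) also passed with groups that did not overlap. Genes with a lower mean level fell outside the choice by size, some with a larger fold. Among them, named after their values were seen, Serpina3m, a neighbour of Serpina3n, averaged 0.552 ± 0.0879 CPM over the APOE4 libraries, against 0.00882 ± 0.0121 CPM over the APOE3 libraries (SD, n = 5 each). Nat8f5, an N-acetyltransferase family gene, averaged 0.435 ± 0.244 CPM over the APOE4 libraries, against 1.86 ± 0.254 CPM over the APOE3 libraries. Counts of pseudogenes and of genes that overlap others are uncertain, since reads can be shared with a near-identical or overlapping gene and the sources used here do not say whether the counting used strand.

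**Figure D1:**
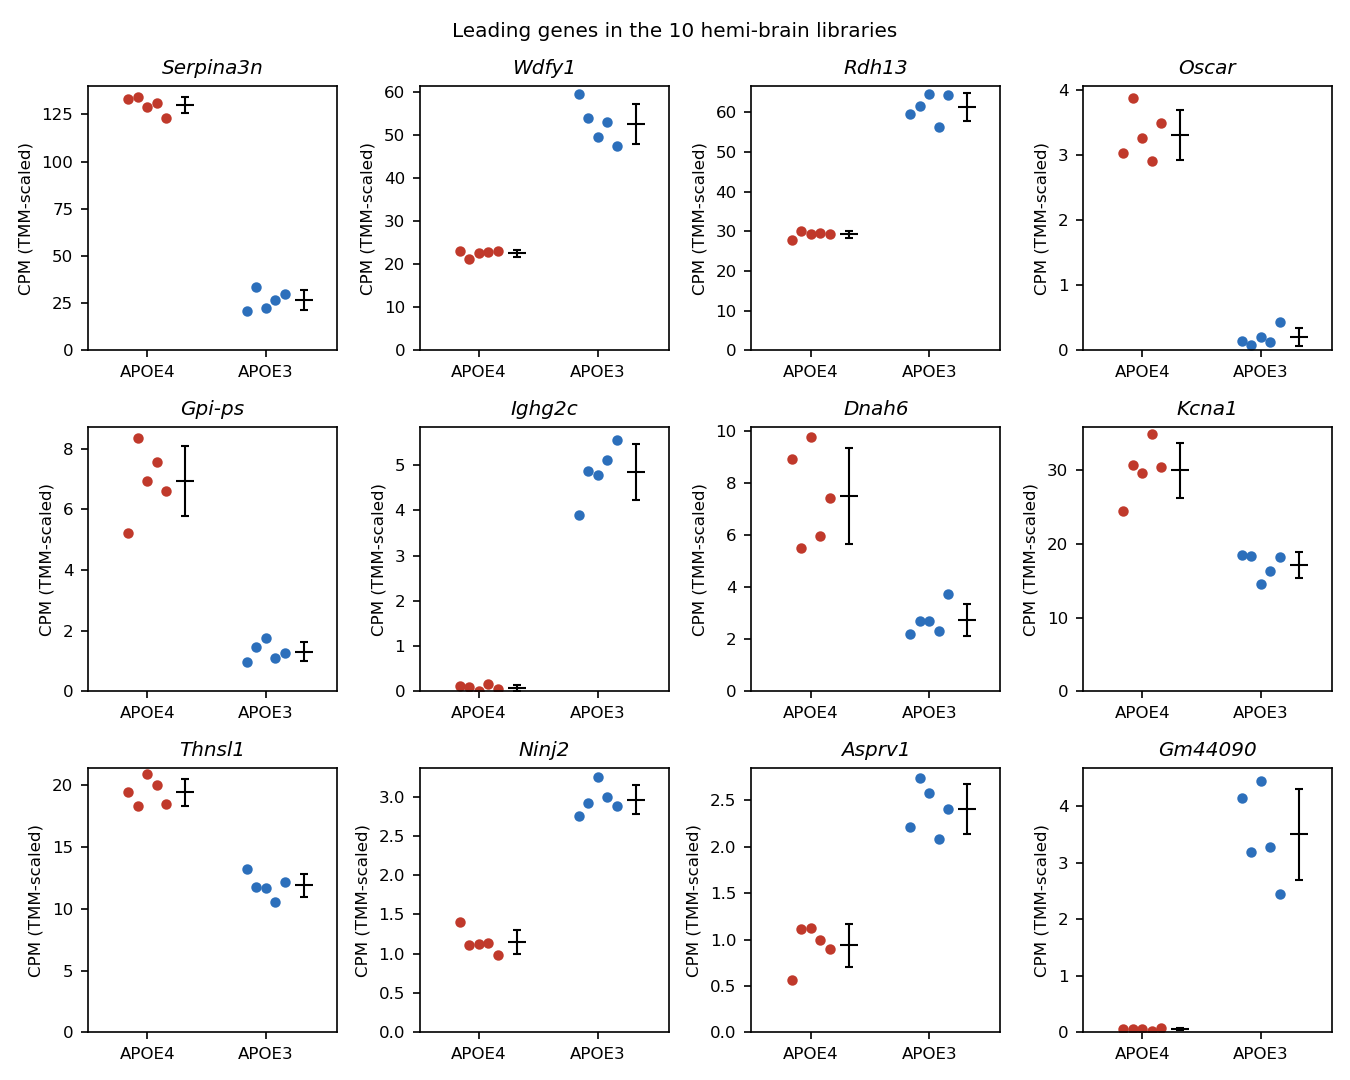
CPM (TMM-scaled, linear axes from 0) of 12 leading genes in the 5 APOE4 libraries (red, left) and the 5 APOE3 libraries (blue, right), 1 point per mouse, with the mean and SD as a black bar. The genes were chosen among those whose genotypes do not overlap, and they range from Serpina3n at 123 to 134 CPM in APOE4 against 21.1 to 33.5 CPM in APOE3 down to Gm44090, which is below 0.1 CPM in every APOE4 library.

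Some of these genes lay close together. In windows of 2 Mb (GRCm38, 984 windows with at least 5 tested genes), 770 held no gene past the test at a fold of at least 1.5 and 17 held 3 or more. The fullest was on chromosome 7 from 30000001 to 32000000, where 8 of 60 genes reached that fold. They included Sbsn and Dmkn, neighbouring genes of secreted epidermal proteins, with log2 fold changes of -0.86 and -1.20, and Arhgap33os, antisense to Arhgap33, at 1.17 to 1.65 CPM in APOE4 and 0.0705 to 0.115 CPM in APOE3. Alkbh6, a member of the AlkB dioxygenase family in the same window, had a log2 fold change of -0.49.

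A second stretch of chromosome 7, from 2000001 to 6000000, covers the next 2 windows, which held 7 such genes of 47 and 5 of 21, in both directions. Oscar and Tmc4, a transmembrane channel-like protein at 6.84 to 8.91 CPM in APOE4 and 2.76 to 3.82 CPM in APOE3 (log2 fold change 1.19), lie there beside Rdh13. Eps8l1, an actin regulator whose annotated span overlaps that of Rdh13, was at 8.56, 2.5, 12.1, 13 and 9.26 CPM in APOE4 and 0.893, 0.61, 0.688, 0.483 and 0.721 CPM in APOE3 (log2 fold change 3.74). Ptprh, a receptor tyrosine phosphatase, was at 2.19 to 2.87 CPM in APOE4 and 0.141 to 0.478 CPM in APOE3 (log2 fold change 3.03). Gm15510 rose (log2 fold change 2.66), whereas Sbk3, a predicted kinase, and 3300002P13Rik fell (-0.75 and -1.92).

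On chromosome 6 from 120000001 to 122000000, 4 of 20 genes reached the fold, among them Ninj2. There Cecr2, a chromatin remodelling subunit, rose (log2 fold change 0.63), while Bid, a pro-apoptotic BCL2 family member, and Hdhd5 fell by smaller amounts (-0.46 and -0.41). On chromosome 4 from 42000001 to 44000000, 5 of 36 genes reached it. Tpm2, a tropomyosin, fell by 0.64 on the log2 scale in that window, and Stoml2, a mitochondrial inner membrane scaffold protein, had a log2 fold change of -0.24.

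The genes that passed in all 23 alternatives were spread unevenly over the chromosomes. Chromosome 7 held 45 of them among 1451 tested genes (3.1%) and chromosome 6 held 44 of 945 (4.66%), whereas the share on the other autosomes and the X ran between 1.07% and 2.86%. Of the 68 mapped genes of this core with a fold of at least 1.5, 19 were on chromosome 7, 16 on chromosome 6 and 7 on chromosome 12. On chromosome 7, the 51 tested genes within 2 Mb of Apoe included 20 that were lower, against 17.4% lower on the whole chromosome and 10.2% over all genes, and none that was higher, and none reached a fold of 1.5 (median log2 fold change -0.19). At 10 to 20 Mb from Apoe, 23 of 201 genes reached it, against 2.04% of all genes. This range includes the chromosome 7 windows described above, which were picked for such genes, so it is not a separate result.

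Across all genes, the direction of a difference went with transcript length and base composition. Spearman's rank correlation between the log2 fold change and the length of the canonical transcript was 0.232 over 20338 genes, and with its GC content it was -0.419. These are descriptions over genes, which are not independent of each other and share the same 10 libraries. Genes higher in APOE4 had a median transcript length of 5249.5 bases and a median GC content of 44.3%. Genes lower in APOE4 had 2202.5 bases and 55.9%, and genes that did not pass had 2712.5 bases and 49.9%.

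The genes were cut into 10 equal bins by each property. The bin of the longest transcripts, with a median length of 8124.5 bases, held 748 genes higher in APOE4 and 66 lower. The second shortest bin, with a median of 1076 bases, held 60 higher and 331 lower. For GC content the split was sharper, with 582 higher and 17 lower in the bin of lowest GC (median 39.7%) and 22 higher and 673 lower in the bin of highest GC (median 59.8%). The medians of the log2 fold change were 0.18 and -0.15 at these ends. A grid of 5 by 5 bins crossed both properties. Among the longest and most GC-poor genes 583 of 1126 were higher and 2 lower, among the shortest and most GC-rich 11 of 847 were higher and 243 lower, and long GC-rich genes gave 11 higher and 73 lower of 469.

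**Figure D2:**
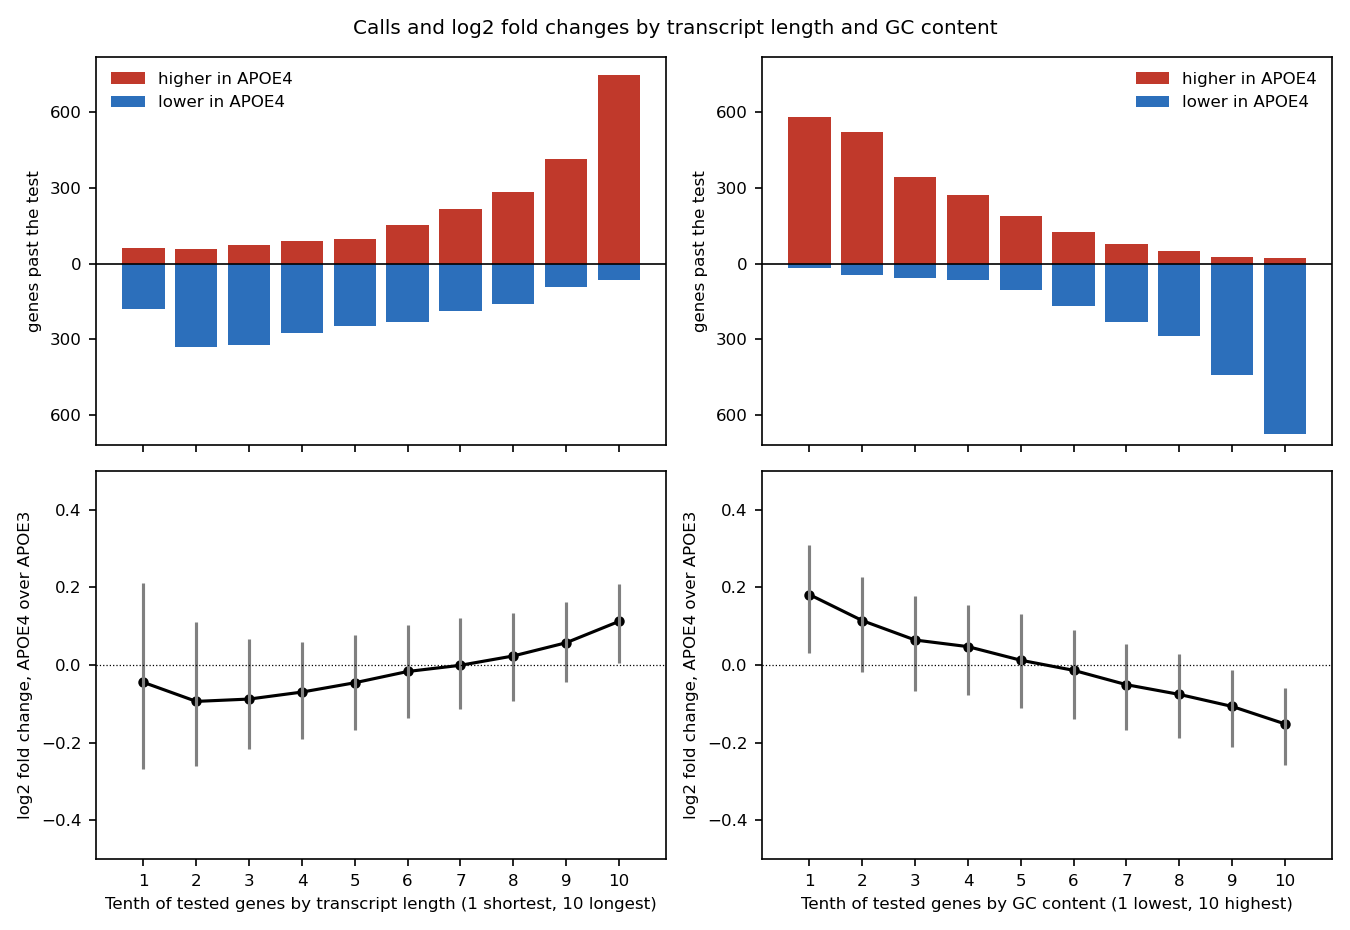
Upper panels: number of genes higher (red, upward) and lower (blue, downward) in APOE4 at an adjusted p under 0.05 in each of 10 equal bins of the tested genes, by canonical transcript length (left) and GC content (right). Lower panels: median log2 fold change of APOE4 over APOE3 in the same bins (points) with the middle 50% of genes (grey lines). Calls turn over from lower to higher as transcripts lengthen, from 178 lower and 64 higher in the shortest bin to 66 lower and 748 higher in the longest, and from higher to lower as GC content grows.

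The slopes could be seen in single libraries and differed between mice of one genotype. Each library's log2 ratio to the midpoint of the APOE4 and APOE3 means was ranked against GC content over the same genes. The rank correlation was -0.39, -0.073, -0.199, -0.342 and -0.286 in the APOE4 libraries F95K, F78N, F58M, FH78 and FH66, against -0.241, 0.217, 0.454, 0.296 and 0.358 in the APOE3 libraries F61N, F37N, F39N, F10N and F64M. F61N thus lay among the APOE4 libraries, and F39N was the most extreme. The APOE4D mice, of the same APOE genotype as APOE4, lay between -0.174 and 0.08. With transcript length the APOE4 and APOE3 libraries did not overlap, at 0.057 to 0.177 in APOE4 and -0.213 to -0.022 in APOE3. The APOE4D libraries ran from -0.07 to 0.098 with length, and so reached into the APOE3 range. How much of these slopes comes from the mice and how much from the preparation and sequencing of their libraries cannot be told apart here.

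**Figure D3:**
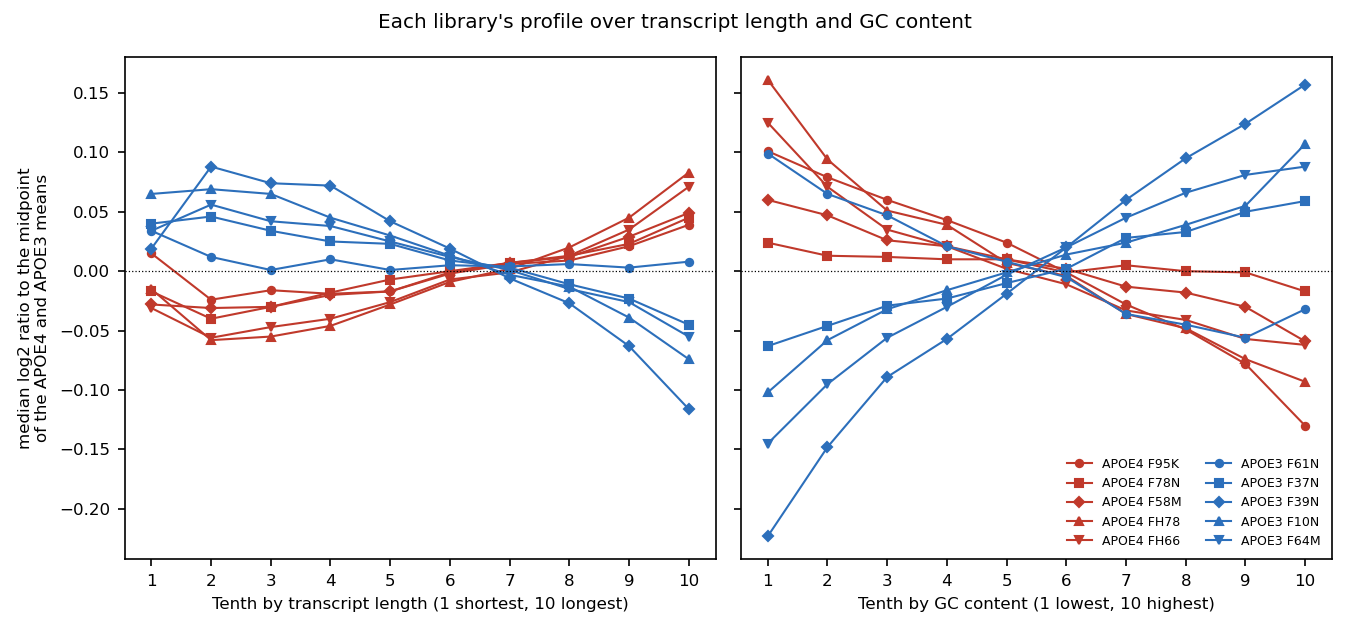
Median log2 ratio of each of the 10 libraries to the midpoint of the APOE4 and APOE3 means, over 10 equal bins of genes by transcript length (left) and GC content (right), with 1 line per mouse, APOE4 in red and APOE3 in blue. By GC content 4 APOE3 libraries rise and the 5 APOE4 libraries fall, and the APOE3 library F61N falls with APOE4. F39N departs most from the rest, from -0.22 in the bin of lowest GC to 0.16 in the highest.

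The trend was removed in an alternative fit, library by library, and 2315 genes then passed, of which 1578 were among the 4422. Of those 4422 genes, 438 had the other sign in that fit. A transcript length and GC content were known for 20338 of the 21022 genes tested, and the others entered that fit uncorrected. Counts after this step are given for the larger gene groups that follow.

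The groups that were higher in APOE4 were largely neuronal surface and signalling genes. Of 53 synaptic adhesion genes, which hold both sides of the synapse together, 35 were higher and 1 lower (66% and 1.89%, against 10.8% and 10.2% of all genes), with a median log2 fold change of 0.21. Of 57 clustered protocadherins, which give neurons their surface identity, 27 were higher and none lower (median 0.34). Of 20 genes of GABA synthesis and receptors 8 were higher and 1 lower, of 53 axon guidance genes 20 and 6, and of 71 potassium channels 20 and 5. Chromatin modifiers (18 of 51 higher, none lower) and zinc finger Zfp genes (82 of 372 higher, 19 lower), both long transcripts with medians of 8857 and 4027 bases, also had a larger share higher than all genes. Left out one at a time, the libraries gave 63 to 127 higher for Zfp genes (127 without F61N), 10 to 23 for chromatin modifiers (10 without FH66), 7 to 13 for GABA genes (13 without F61N) and 11 to 22 for axon guidance (11 without F39N).

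Removal of the length and GC trend left different shares of these lists. The protocadherins kept 18 higher and none lower, with a median of 0.30. Synaptic adhesion kept 10 higher and 3 lower, with a median of 0.06 instead of 0.21, and potassium channels 12 higher and 2 lower. GABA genes had 4 higher and 1 lower, with a median of 0.03 instead of 0.16, and axon guidance genes 6 and 2. Chromatin modifiers had 0 higher and 3 lower, and Zfp genes 16 higher and 9 lower with a median of 0.02. With 1 surrogate variable the counts were 6 higher and none lower for protocadherins, 7 and 1 for synaptic adhesion, 4 and 1 for potassium channels, 0 and 1 for GABA genes and 5 and 0 for axon guidance. Without the FH mice they were 10 and 0, 13 and 0, 6 and 1, 2 and 0, and 5 and 3.

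Grin2b, the NMDA receptor subunit with a transcript of 24238 bases, was at 265, 287, 266, 279 and 287 CPM in APOE4, against 205, 208, 171, 196 and 217 CPM in APOE3. The groups did not overlap, and the log2 fold change was 0.47 (SE 0.05, adjusted p = 1.07e-06), or 0.20 with the trend removed (adjusted p = 0.000878). Of 24 glutamate receptor genes 9 were higher and 4 lower, and 2 were higher and none lower with the trend removed.

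Scn3a, a voltage-gated sodium channel prominent in development, was at 46.2, 41.8, 46.8, 49.2 and 47.8 CPM in APOE4, against 37.6, 32.4, 32.7, 31.1 and 32.8 CPM in APOE3 (log2 fold change 0.48, adjusted p = 4.84e-06). Nalcn, the sodium leak channel that sets resting potential, was at 98.6, 96.6, 96.4, 98.9 and 96.2 CPM in APOE4, against 82.5, 72.4, 63.9, 72.2 and 73 CPM in APOE3 (log2 fold change 0.42, adjusted p = 9.09e-06). The APOE4 libraries were within a narrow band for Nalcn, and the APOE3 libraries spread below it. Kcnh5, a potassium channel of the ether-a-go-go family, was at 4.06 to 5.58 CPM in APOE4 and 2.85 to 3.71 CPM in APOE3 (log2 fold change 0.66). Of 32 sodium and calcium channel genes 10 were higher and 6 lower, and 7 and 4 with the trend removed.

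Sema3a, a secreted repulsive axon guidance cue, was at 22.7, 22.1, 22, 23.7 and 24.5 CPM in APOE4, against 16.4, 16.9, 14, 15.5 and 15.5 CPM in APOE3 (log2 fold change 0.56, adjusted p = 1.85e-06, and 0.32 with the trend removed). Sema6d, a transmembrane semaphorin, had a log2 fold change of 0.30. The adhesion genes Slitrk2 (log2 fold change 0.42), Tenm1 (0.40) and Cadm1 (0.23) rose, and each of these 5 genes passed in all 23 alternatives. Pcdhb8 was at 9.71, 8.43, 8.91, 8.18 and 8.86 CPM in APOE4, against 5.03, 5.77, 6.9, 6.13 and 6.06 CPM in APOE3 (log2 fold change 0.56), and Pcdhga2 at 6.01 to 8.4 CPM in APOE4 and 3.92 to 5.54 CPM in APOE3 (log2 fold change 0.55). With the trend removed the values were 0.53 for Pcdhb8 and 0.55 for Pcdhga2.

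Other rises were not called once the trend was removed. Gad2, which makes GABA (log2 fold change 0.20), Grin3a, an NMDA receptor subunit (0.20), the histone methyltransferase genes Kmt2c (0.27) and Setd5 (0.17), and Zfp738 (0.47) passed the test, and none of these 5 did so with the trend removed. Zfp871 (log2 fold change 0.43) passed in all alternatives, at 0.15 with the trend removed. Camk4, a calcium-dependent kinase that signals to the nucleus, had a log2 fold change of 0.40 at 25.2 to 26.9 CPM in APOE4 and 17.5 to 20.9 CPM in APOE3, and its value did not shrink with the trend removed (0.42).

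**Figure D4:**
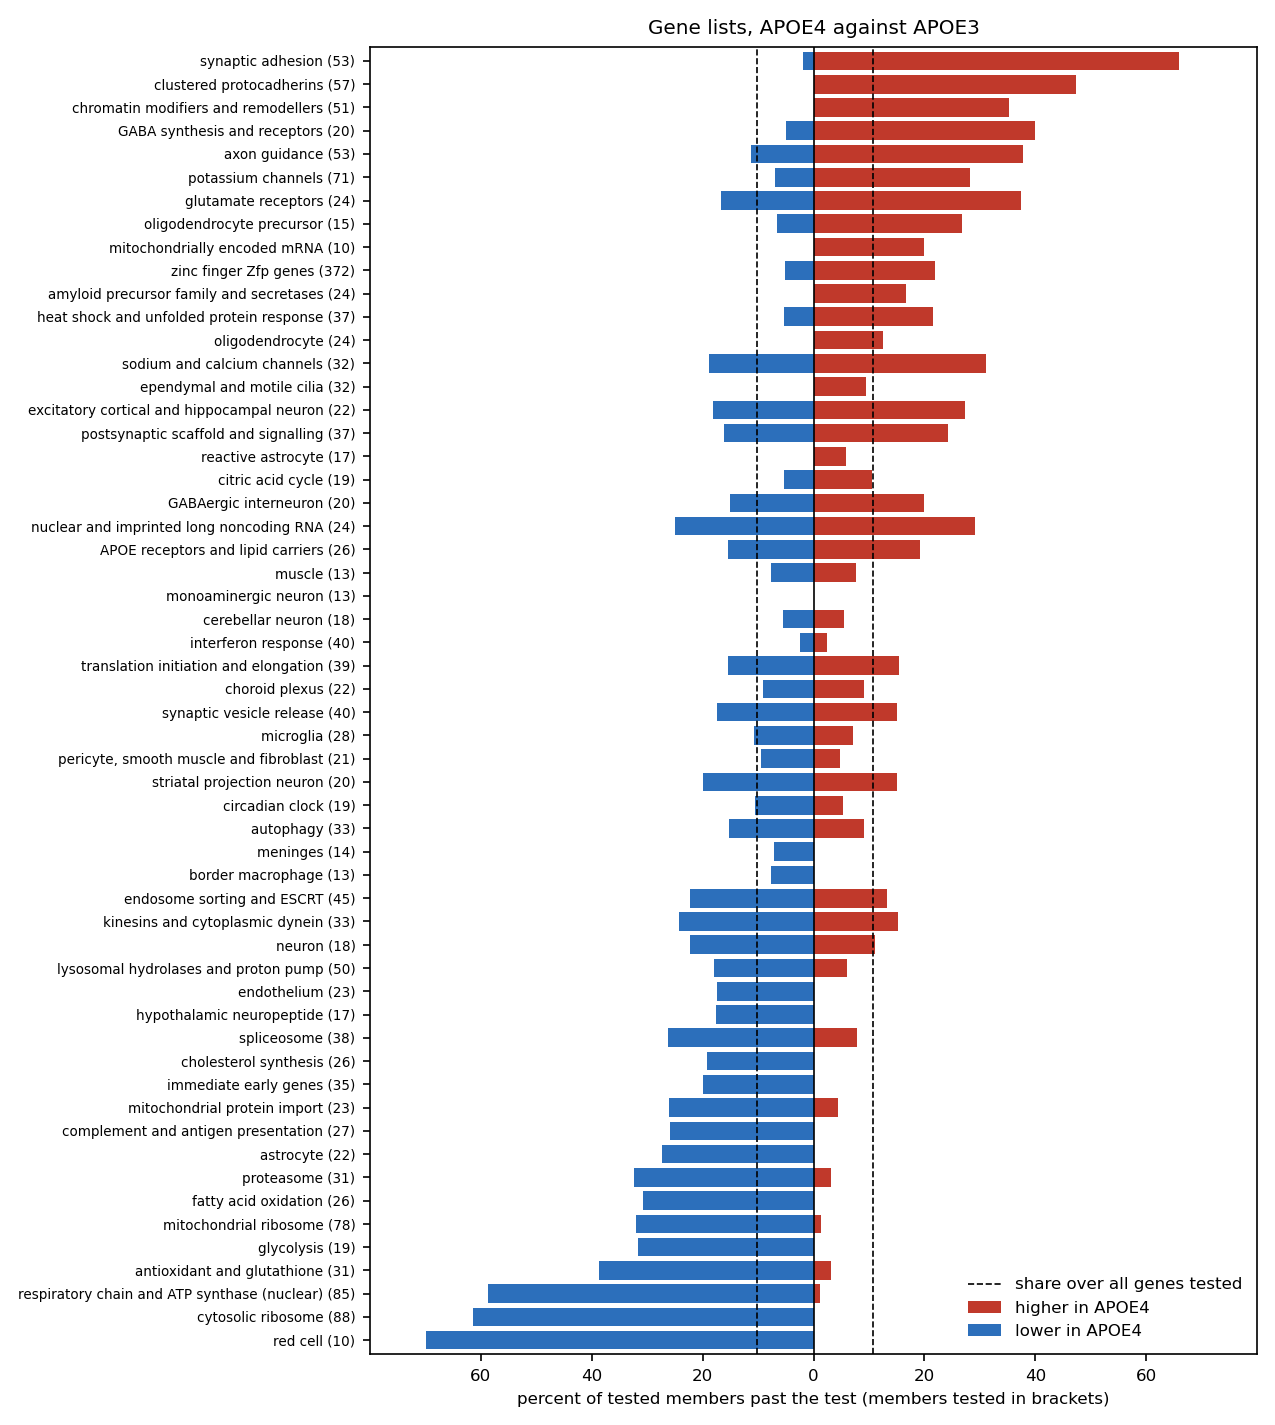
Percent of the tested members of each gene list that were higher (red, right) or lower (blue, left) in APOE4 at an adjusted p under 0.05, with the number of members tested in brackets and the shares over all genes (10.8% and 10.2%) as dashed lines. Synaptic adhesion (66% higher) and clustered protocadherins stand at the upper end, and the nuclear respiratory chain genes, the cytosolic ribosome and the red cell list at the lower end.

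The 3 lists of ribosomal and respiratory chain genes had a larger share lower in APOE4 than all genes. Of 88 cytosolic ribosomal protein genes 54 were lower and none higher (61.4% lower, against 10.2% of all genes), with a median log2 fold change of -0.20. Of 85 nuclear genes of the respiratory chain and ATP synthase 50 were lower and 1 higher (median -0.16), and of 78 mitochondrial ribosome genes 25 and 1 (median -0.12). With the trend removed the counts were 31 lower and none higher, 36 and 3, and 16 and 2, with medians of -0.11, -0.11 and -0.04. With 1 surrogate variable the 3 lists had 14, 19 and 5 lower, and without the FH mice 32, 25 and 10 lower. Related lists were mixed. Translation initiation and elongation had 6 higher and 6 lower of 39 genes, and the citric acid cycle 2 higher and 1 lower of 19. Mitochondrial protein import had 6 lower and 1 higher of 23 (26.1% lower), or 7 and 1 with the trend removed. The proteasome had 10 lower and 1 higher of 31 (32.3% lower), or 3 and 1 with the trend removed. With 1 surrogate variable these 2 lists had 2 and 1 lower. The ribosomal medians per library were -0.05, -0.129, -0.068, -0.173 and -0.085 in APOE4, against -0.037, 0.072, 0.256, 0.087 and 0.106 in APOE3. F61N thus had the lowest cytosolic ribosomal median of the APOE3 libraries and F39N the highest. No APOE3 median of this list or of the respiratory chain list fell into the APOE4 range. The APOE4D medians ran from -0.166 to 0.027 for the cytosolic ribosome and from -0.152 to 0.013 for the respiratory chain. Both ranges reached into that of APOE3. For the mitochondrial ribosome the median of F61N (-0.012) lay within the APOE4 range of -0.077 to -0.01.

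Cox6a1, part of cytochrome c oxidase, stood at 270, 298, 284, 266 and 275 CPM in APOE4, against 360, 378, 414, 403 and 351 CPM in APOE3 (log2 fold change -0.45, SE 0.05, adjusted p = 6.52e-07). Cox8a, another subunit of that enzyme, was at 374, 406, 402, 355 and 372 CPM in APOE4, against 476, 518, 583, 528 and 500 CPM in APOE3 (log2 fold change -0.45, adjusted p = 1.06e-06). The groups were apart in both, and the values with the trend removed were -0.27 each. For Cox6a1 the APOE4D libraries were at 289 to 326 CPM, below every APOE3 library. Ndufb9, a complex I subunit with a longer, less GC-rich transcript (4197 bases), had a log2 fold change of -0.35, which became -0.42 with the trend removed. Timm8b, a chaperone of the mitochondrial intermembrane space, behaved likewise (-0.32, and -0.43 with the trend removed). Atp5j2, a subunit of the ATP synthase, had a log2 fold change of -0.35 and no transcript length in the annotation used, so its trend could not be removed. The values of Atp5d (-0.325), Atp5e (-0.297) and Atp5j (-0.206) were also unchanged in the fit with the trend removed. Such uncorrected genes are part of the respiratory chain counts and median given for that fit.

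Of 10 mitochondrially encoded mRNAs tested 2 were higher and none lower, with a median of 0.03 that became -0.10 with the trend removed and -0.004 without F39N, and its difference from the nuclear lists was not tested. mt-Nd6, the only one on the light strand of the mitochondrial genome, was at 107, 92.8, 95.1, 112 and 110 CPM in APOE4, against 90.9, 68.4, 60.8, 67.5 and 55.8 CPM in APOE3 (log2 fold change 0.59, adjusted p = 0.0041). F61N was the highest APOE3 library, and the groups did not overlap. mt-Nd2 passed with a log2 fold change of 0.26 and overlapping groups. Neither passed without the FH mice or with 1 surrogate variable. Without F61N 4 of the 10 were higher.

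Rps20 was at 121, 114, 111, 112 and 120 CPM in APOE4, against 147, 138, 160, 170 and 143 CPM in APOE3 (log2 fold change -0.39, adjusted p = 1.27e-05). Rps2 (log2 fold change -0.34) and Rps15 (-0.40) were likewise lower without overlap, and 12 ribosomal protein genes passed in all 23 alternatives. Mrpl54, of the mitochondrial ribosome, had a log2 fold change of -0.49.

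Ribosomal protein mRNAs are known to begin with a run of pyrimidines at the transcription start, the 5′ terminal oligopyrimidine tract, through which their translation is regulated. To show what these starts look like, 30 bases of the RefSeq promoter (GRCm38.p6, the 10 bases before the annotated start and the 20 from it, sense strand) are printed for 4 of the 12 genes, the 2 with a match of CTTTC or CTTCC on that strand and 2 without, with the matches in capitals.
Rpl27a (chr7:109519185-109519214, plus strand): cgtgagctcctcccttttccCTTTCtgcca
Rplp2 (chr7:141447641-141447670, plus strand): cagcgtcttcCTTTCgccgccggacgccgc
Rps9 (chr7:3704031-3704060, plus strand): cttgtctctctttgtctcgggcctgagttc
Rps15 (chr10:80292421-80292450, plus strand): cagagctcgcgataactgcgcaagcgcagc
One of these 5-base strings was found in 24 of the 63 tested ribosomal protein genes that had a RefSeq promoter (38.1%), in 14 of 69 respiratory chain genes (20.3%), in 2 of 36 synaptic adhesion genes (5.56%) and in 9.84% of all 27025 promoters. A match is a string of letters in this window, not a site shown to be used.

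Lists of antioxidant, fatty acid and sugar metabolism also had more genes lower than higher. The shares lower were 38.7% of antioxidant, 30.8% of fatty acid oxidation and 31.6% of glycolysis genes, against 10.2% of all genes. Of 31 antioxidant and glutathione genes 12 were lower and 1 higher (4 and 0 with the trend removed), of 26 fatty acid oxidation genes 8 and 0 (4 and 0 with the trend removed), and of 19 glycolysis genes 6 and 0, a list that had 1 lower and 2 higher with the trend removed. The lower counts fell to 6 for antioxidant genes without FH78, 5 for fatty acid oxidation without F39N and 2 for glycolysis without F10N. Gpx4, which reduces lipid peroxides, was at 171, 167, 169, 166 and 164 CPM in APOE4, against 190, 222, 239, 202 and 214 CPM in APOE3 (log2 fold change -0.35, adjusted p = 3.07e-05). Gpx1, a cytosolic glutathione peroxidase, had a log2 fold change of -0.32, and Sod1, the copper-zinc superoxide dismutase, one of -0.26. The 3 genes passed in all 23 alternatives.

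Cholesterol synthesis, which supplies the cargo of APOE, had 5 of 26 genes lower and none higher (19.2% lower, median -0.12), or 3 and none with the trend removed, and 3 lower without F64M. Mvd, mevalonate diphosphate decarboxylase, was at 17.8, 18.2, 15.2, 17.1 and 15.9 CPM in APOE4, against 21.5, 23.6, 24.7, 22.7 and 22.9 CPM in APOE3 (log2 fold change -0.46, adjusted p = 0.000217). The groups did not overlap. Mvk, mevalonate kinase, had a log2 fold change of -0.36. Among 26 APOE receptors and lipid carriers 5 were higher and 4 lower, and none and 2 with the trend removed. The first counts are 19.2% and 15.4%, against 10.8% and 10.2% of all genes. The sorting receptor Sorl1 (log2 fold change 0.20) and the reelin and APOE receptor Vldlr (0.17) were higher and the fatty acid binding protein Fabp3 (-0.29) lower. Fabp3 alone of these 3 passed with the trend removed. A list of 24 genes of the amyloid precursor family, its secretases and binding partners, to which tau had been added, held 4 that were higher and none lower. That is 16.7%, against 10.8% of all genes higher and 21.0% past the test in either direction, with a list median of 0.015. Among the 4 were Adam10, an alpha-secretase (0.26), and the tau gene Mapt (0.11), which belongs to neither family. With 1 surrogate variable, and likewise without the FH mice, 1 gene of the list was higher, and Adam10 passed in neither fit.

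Several abundant neuronal genes were lower. Cplx1, a complexin that clamps vesicle fusion, was at 702, 679, 677, 688 and 671 CPM in APOE4, against 787, 794, 866, 826 and 808 CPM in APOE3 (log2 fold change -0.26, adjusted p = 3.58e-05). Uchl1, an abundant neuronal deubiquitinase, had a log2 fold change of -0.32, Kif5a, a neuronal kinesin, one of -0.22, and Ppp1r1a, an inhibitor of protein phosphatase 1, one of -0.32. Each of the 4 passed in all 23 alternatives. Over 40 genes of synaptic vesicle release 6 were higher and 7 lower, and over 18 neuron markers 2 and 4 (3 and 4, and 1 and 1, with the trend removed).

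Interneuron markers were split. Dlx6os1, a long noncoding RNA of GABAergic progenitors, was at 18.4, 16.2, 19.4, 18.4 and 22.2 CPM in APOE4, against 13.4, 14.1, 9.9, 12.5 and 10.8 CPM in APOE3 (log2 fold change 0.64, adjusted p = 0.000121). The calcium buffer Pvalb (log2 fold change -0.27) and the neuropeptides Cck (-0.30) and Sst (-0.24) were lower. Pvalb was at 61.2 to 67.2 CPM in APOE4 and 70.9 to 84.3 CPM in APOE3, and Cck at 249 to 280 CPM in APOE4 and 290 to 373 CPM in APOE3. Avp, vasopressin of the hypothalamus, was at 22.6, 25, 23.4, 21.7 and 32.8 CPM in APOE4, against 42.9, 44.5, 46.7, 63.3 and 35.1 CPM in APOE3 (log2 fold change -0.89, adjusted p = 0.00844), and did not pass with the trend removed.

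The spliceosome list had members in both directions that held in every alternative. Snrpd3 was at 86.3, 82.6, 87.4, 81.9 and 82.2 CPM in APOE4, against 71.5, 72.3, 75.4, 71.7 and 71.5 CPM in APOE3 (log2 fold change 0.21), and Snrpd1 had a log2 fold change of 0.27. Lsm4, a core protein of U6 snRNP, had one of -0.35. Of 38 spliceosome genes 3 were higher and 10 lower (7.89% and 26.3%, against 10.8% and 10.2% of all genes), or 6 lower without FH78. The counts were 6 higher and 7 lower with the trend removed, and 3 and 1 with 1 surrogate variable.

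Glial lists differed in the share of genes past the test (27.3% of astrocyte, 33.3% of oligodendrocyte precursor, 12.5% of oligodendrocyte and 17.9% of microglial markers, against 21.0% of all genes). Of 22 astrocyte markers 6 were lower and none higher (27.3% lower, median -0.11), or 4 and none with the trend removed, and 3 lower without F58M. Ntsr2, a neurotensin receptor, was at 133, 134, 129, 133 and 132 CPM in APOE4, against 151, 154, 163, 156 and 151 CPM in APOE3 (log2 fold change -0.23), and the glycolytic enzyme Aldoc had a log2 fold change of -0.22. Of 24 oligodendrocyte markers 3 were higher and none lower, and 7 and none with the trend removed. Gpr37, a receptor of myelinating cells, was at 62.1, 65.2, 60.3, 62.8 and 59.6 CPM in APOE4, against 52.6, 49.5, 53.5, 53 and 49.6 CPM in APOE3 (log2 fold change 0.26, adjusted p = 0.000401). Ermn, a myelin protein, had a log2 fold change of 0.31, Tnr, an extracellular matrix protein, 0.31, and Pdgfra, the growth factor receptor of oligodendrocyte precursors, 0.26. Ermn and Ntsr2 did not pass with the trend removed, where the log2 fold change of Ntsr2 was -0.025 (adjusted p = 0.764).

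Microglial markers numbered 2 higher and 3 lower of 28, or 3 and 7 without F61N. Gpr34, a lysophosphatidylserine receptor, was at 22, 18.3, 19.8, 21.3 and 18.4 CPM in APOE4, against 15.1, 16.4, 15.3, 15.3 and 14.9 CPM in APOE3 (log2 fold change 0.37, adjusted p = 0.00042), whereas the complement genes C1qa and C1qc had log2 fold changes of -0.35 and -0.30 with overlapping groups. None of the 28 passed with the trend removed. In the list of complement and antigen presentation 7 of 27 genes passed as lower and none as higher (12 lower without F61N, and 2 lower in each of the fits with the trend removed, with 1 surrogate variable and without the FH mice), led by the immunoproteasome genes Psmb10 (log2 fold change -0.39) and Psme1 (-0.32), which passed in all alternatives, as did Ifitm2, an interferon-induced membrane protein (-0.60). Of 40 interferon response genes 1 was higher and 1 lower.

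Lists of cells at the brain's surface and vessels varied between mice of one genotype. The medians of the 14 meningeal markers were -0.163, -0.058, -0.162, -0.263 and -0.339 in APOE4, against -0.176, 0.662, 0.079, 0.574 and -0.164 in APOE3, so the APOE3 libraries F37N and F10N were high and the other 3 APOE3 libraries were not all above APOE4. The 13 border macrophage markers were highest in the same libraries (0.577 and 0.4). In each list 1 gene was lower, and Crabp2, a retinoid binding protein of the meninges, had a log2 fold change of -0.69. Of 23 endothelial markers 4 were lower (17.4%, against 10.2% of all genes), or 2 without F10N. They included Slc2a1, the glucose transporter of the blood-brain barrier (-0.38), and Ly6c1 (-0.54). None of the 23 passed with the trend removed. The 10 red cell genes had a median of -1.24, with 7 lower, or 2 lower without the FH mice, where the median was -1.23. Their medians were 1.375 in F61N and 1.037 in F37N, against at most 0.114 in the other 8 libraries. Slc4a1, the red cell anion exchanger, was at 0.0915 to 0.199 CPM in APOE4 and 0.21 to 1.15 CPM in APOE3, and Bpgm, which makes 2,3-bisphosphoglycerate, had a log2 fold change of -0.21. The part of dissection or perfusion in these values was not tested.

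Immediate early genes and clock outputs also differed between mice. The share lower was 20% of immediate early genes, against 10.2% of all genes. Of 35 immediate early genes 7 were lower and none higher (4 lower without F10N, 1 with the trend removed and 2 with 1 surrogate variable), with a median of -0.38, and the library medians ran from -0.356 to 0.061 in APOE4 and from -0.234 to 0.551 in APOE3. Ier3, an early response gene, had a log2 fold change of -0.60 and did not pass with the trend removed. Per1, a repressor of the circadian clock, was at 61.3, 69.1, 70.6, 57.1 and 78.7 CPM in APOE4, against 119, 90.5, 98.1, 86.3 and 76 CPM in APOE3 (log2 fold change -0.48, adjusted p = 0.0111). The groups overlapped through FH66 and F64M. Dbp, a clock output factor, had a log2 fold change of -0.72 at 59.9 to 90.8 CPM in APOE4 and 106 to 131 CPM in APOE3. Dbp did not pass with the trend removed, with 1 surrogate variable or without the FH mice. With APOE4D joined to APOE4 its log2 fold change was -0.43 and it did not pass. Per1 passed with the trend removed and without the FH mice, but not with 1 surrogate variable or with APOE4D joined. Of 19 clock genes 1 was higher and 2 lower (5.26% and 10.5%, against 10.8% and 10.2% of all genes). The part of the time of day of collection was not tested.

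**Figure D5:**
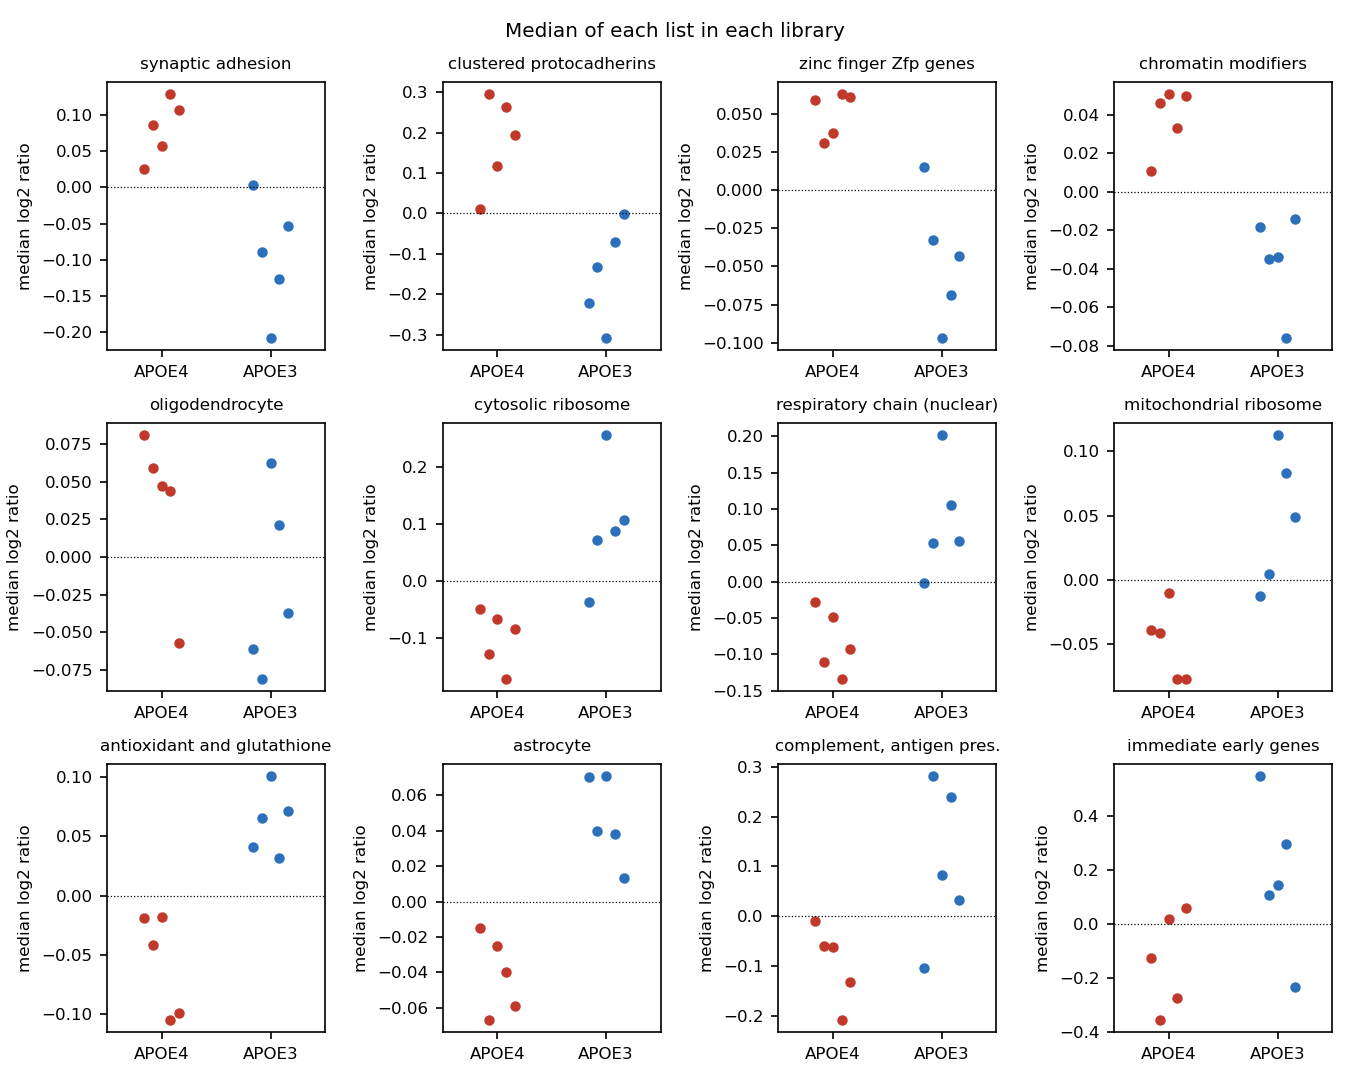
Median log2 ratio to the midpoint of the APOE4 and APOE3 means over the members of 12 gene lists, 1 point per library, APOE4 in red on the left and APOE3 in blue on the right. The cytosolic ribosome runs from -0.173 to -0.05 in APOE4 and from -0.037 to 0.256 in APOE3, and immediate early genes overlap, from -0.356 to 0.061 in APOE4 and from -0.234 to 0.551 in APOE3.

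By chromosome, the X held 154 higher and 30 lower of 658 tested genes (median 0.07), and chromosome 18, where the clustered protocadherins lie, 104 and 28 of 540. The shares higher were 23.4% and 19.3%, against 10.8% of all genes. Chromosomes 7 (109 higher, 253 lower of 1451), 11 (107 and 223 of 1486) and 17 (64 and 134 of 924) leaned the other way. Their shares lower were 17.4%, 15% and 14.5%, against 10.2% of all genes. With the trend removed the counts were 87 and 28 on the X, 42 and 24 on chromosome 18, 88 and 104 on chromosome 7, 69 and 99 on chromosome 11 and 41 and 46 on chromosome 17. The X kept its lean without F61N (213 higher, 33 lower). Protein-coding genes were balanced (1976 higher and 1967 lower of 15623), while unconfirmed transcripts of the class TEC, or to be experimentally tested, had 76 higher and 8 lower of 761. The TEC shares were 9.99% higher and 1.05% lower, against 10.8% and 10.2% of all genes.

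Calls also grew with expression. The share of genes that passed was 4.02% in the lowest of 5 equal bins by mean CPM and 40.5% in the highest. The length trend was present among protein-coding genes above and below their median expression, with 635 higher and 49 lower of 1398 in the longest bin above it and 108 and 17 of 615 in the longest bin below it.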

How the data were processed

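Libraries were grouped by the genotype and mouse ID in their labels. They were made with a stranded poly(A) kit and sequenced as single reads. The raw count of reads for each gene is as deposited by the authors. According to the submitters' processing notes, STAR 2.7.0 and featureCounts were used with the build GRCm38 (mm10). The authors' normalized counts and their tables of log2 fold changes and p-values were not used. All 20 pairs of libraries within a group differed beyond counting noise.

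Genes over 0.1 CPM in more than 40% of the 15 APOE2, APOE3 and APOE4 libraries were tested with edgeR 4.0.16 (R 4.3.3), using TMM scaling and the robust quasi-likelihood test. P-values were adjusted by Benjamini-Hochberg and called under 0.05. Library profiles used log2 CPM with a prior count of 2. Positions came from RefSeq (GRCm38.p6, 39152 of 55291 symbols matched). Transcript length, GC content and biotype came from GENCODE (49954 matched), and no coordinates were taken from it. The trend over length and GC was removed by loess (span 0.3) as an offset. The other alternatives were no filter, filterByExpr, RLE factors, library totals, DESeq2 1.42.0, limma 3.58.1 (voom), 1 surrogate variable from sva 3.50.0, the ID series as a covariate, thinning to 1 depth, other sets of libraries, and each library left out in turn. Named genes were the 12 with the greatest log2 fold change in each direction among called genes whose mean log2 CPM was 1 or more and whose groups did not overlap, the 10 smallest p, up to 4 called genes per list and per described window with the smallest p, and Apoe and Xist. The text takes 112 of these 226. The comparison, its lists and its members were chosen with earlier results of these data known. The steps were tested on simulated counts. Plots were made in matplotlib 3.10.9 under Python 3.11.15.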

Additional observations from a re-analysis of the deposited data

Results flagged for a closer look

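Each of the genes named above was compared within its group of 5 libraries, and 1 library was marked where its gap to the nearest other exceeded Dixon's 95% critical value. Chance marks about 1 in 20 groups, and 14 of 224 (6.25%) were marked. In APOE4 these were Tmem72 at 12.1 CPM in F78N (next 9.04), Wdfy1 at 21.1 in F78N (next 22.6), Alas2 at 5.07 in FH78 (next 3.02), Sbsn at 4.92 in FH78 (next 4.52), Sema6d at 77.2 in F95K (next 74.8) and Gm12758 at 0.0639 in FH66, where the other 4 had no read. In APOE3, 4 of the marks fell on F61N, with Gad2 at 234 CPM (next 208), Scn3a at 37.6 (next 32.8), Cecr2 at 6.37 (next 5.25) and Arhgap33os at 0.0705 (next 0.103). The others in APOE3 were Tmc4 at 2.76 CPM in F64M (next 3.53), Kcnh5 at 3.71 in F64M (next 3.08), Gpr34 at 16.4 in F37N (next 15.3) and Snrpd3 at 75.4 in F39N (next 72.3). For Gad2, Scn3a and Cecr2 the F61N value lay on the side of the APOE4 libraries.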

How the results depend on the processing

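No paired analysis was possible because the labels give mouse IDs and no replicate numbers shared between the genotypes. None of the 112 genes followed through the 23 alternatives changed sign in them. List medians did change sign in places, as for glycolysis (-0.08, and 0.01 with the length and GC trend removed) and microglia (-0.07, and 0.05 with 1 surrogate variable). The number of genes past the test was between 3989 and 4758 with other filters, scalings and tests, with APOE4 and APOE3 alone, with APOE4D joined to APOE4 and after thinning. It fell to 1403 without the FH mice (623 higher, 780 lower, 164 at a fold of at least 1.5), 2916 with the ID series as a covariate (1487, 1429 and 284), 836 with 1 surrogate variable (350, 486 and 117) and 2315 with the trend removed (1152, 1163 and 267). Of the 4422 genes, 1375, 2840, 729 and 1578 were called in these 4 fits. With 1 library left out at a time the counts ran from 3028 without F39N to 5739 without F61N, with 1531 to 3206 genes higher, 1388 (without FH78) to 2533 lower and 312 to 529 at a fold of at least 1.5. The FH mice are 2 of 5 in APOE4 and 0 of 5 in APOE3, so ID series and genotype are partly confounded. The surrogate variable and genotype are partly confounded as well, and the cause of these changes was not tested.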
